A study of Mus musculus with 14 samples.

Results

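CRTC2 occupancy was listed at 14171 genomic sites in 3T3-L1 adipocytes exposed to FSK and TNFα together, and 5588 of them (39.4%) shared no base with a CRTC2 peak from untreated cells, from cells given FSK alone or from cells given TNFα alone. These combined-only sites were chosen by the presence and absence of calls in the 4 CRTC2 lists, so their CRTC2 scores, tags and folds describe the choice and are not evidence for it. The combined-only sites were weak members of their list, mostly lay away from promoters, and were less often acetylated than the sites shared with a single treatment. AP1 motifs were matched at 19.9% of them (14.5% of the whole list) and a CRE core at 16.3% (25.2% of the list), while 184, or 3.29%, carried a p65 peak from the same treatment (3.36% of the list). The whole list is richer in promoters, and outside them AP1 stood at 22.4% of the combined-only sites and 26.4% of the other peaks, and p65 at 3.72% and 7.86%. Sites of high score lay near Per1, Sod2, Fosl2, Dusp1, Dgat1, Ccl2 and Ccl7. The Dgat1 site lay 387 bp from a CRTC2 midpoint of untreated cells, and the Ccl7 site 208 bp from one with TNFα.

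The study mapped CRTC2, the NF-κB subunit p65 and histone H3 acetylated at lysine 27 (H3AcK27) by ChIP-seq in mouse 3T3-L1 cells, a fibroblast-like line that can be turned into fat cells in culture and was used after 4 days of differentiation. Cells received no treatment, FSK (forskolin, 10 µM), TNFa (TNFα), or FSK with TNFa, for 1 h, and each of the 3 antibodies was used on 1 library per treatment, with input DNA from untreated and from FSK-treated cells. With 1 library per group there is no replicate check, no p-value is given, and every interval is a 95% Wilson interval that covers counting error over peaks only. All peaks of a list come from the same library, so they are not replicates of a treatment. The cells are 1 line, and in untreated cells H3AcK27 covered a start site of 4 of 9 adipocyte marker genes (not Cebpa, Adipoq, Plin1, Cd36 or Cidec) and of all 5 preadipocyte or fibroblast markers, beside 49.5% of all protein-coding genes. Start sites of 1 of 5 immune markers and of 0 of 3 endothelial markers were covered.

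CRTC2 is a coactivator without DNA-binding activity of its own. In resting cells salt-inducible kinases (SIKs) phosphorylate it and hold it in the cytoplasm. FSK raises cAMP, protein kinase A then inhibits the SIKs, and dephosphorylated CRTC2 enters the nucleus and joins CREB on cAMP response elements (CREs). TNFα releases NF-κB p65 from its IκB inhibitors. The paper reports that TNFα also acts on CRTC2 in these adipocytes. It lowered the kinase SIK2, CRTC2 lost phosphate and moved into the nucleus, and CRTC2 was found at the Cxcl1 promoter. AP1 factors are bZIP relatives of CREB that are activated by many stress and growth signals. H3AcK27 marks active promoters and enhancers.

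The reference sequence at 6 combined-only sites is shown to make the motif classes concrete, each as 200 bases of the plus strand of GRCm38/mm10 centred on the peak midpoint, with the named motif in capitals. The Per1 site stands for promoter sites with a CRE core, the Adtrp site for the full palindromic CRE far from any other CRTC2 peak, the Ltbp1 site for AP1, the Ptprj site for the C/EBP-ATF composite, the Tnfsf15 site for NF-κB with a p65 peak, and the Rnd3 site for the many sites at the lowest score. A match describes the letters in the window and is not evidence of binding by a factor.
Per1 site, chr11:69099949-69100148: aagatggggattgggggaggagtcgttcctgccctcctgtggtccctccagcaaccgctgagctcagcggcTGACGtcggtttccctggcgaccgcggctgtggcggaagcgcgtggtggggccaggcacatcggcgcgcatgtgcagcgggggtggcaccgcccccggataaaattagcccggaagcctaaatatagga
Adtrp site, chr13:41750520-41750719: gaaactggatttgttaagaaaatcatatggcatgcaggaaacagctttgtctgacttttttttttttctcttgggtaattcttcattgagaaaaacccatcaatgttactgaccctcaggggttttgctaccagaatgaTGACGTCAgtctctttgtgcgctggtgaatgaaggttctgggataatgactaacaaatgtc
Ltbp1 site, chr17:74887029-74887228: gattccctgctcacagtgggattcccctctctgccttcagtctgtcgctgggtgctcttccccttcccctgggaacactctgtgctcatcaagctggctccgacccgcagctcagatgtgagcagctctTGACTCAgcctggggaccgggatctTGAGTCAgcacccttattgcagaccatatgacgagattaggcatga
Ptprj site, chr2:90542819-90543018: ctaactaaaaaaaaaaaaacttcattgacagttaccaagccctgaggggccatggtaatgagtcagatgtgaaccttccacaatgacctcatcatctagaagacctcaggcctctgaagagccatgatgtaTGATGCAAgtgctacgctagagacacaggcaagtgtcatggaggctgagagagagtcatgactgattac
Tnfsf15 site, chr4:63740803-63741002: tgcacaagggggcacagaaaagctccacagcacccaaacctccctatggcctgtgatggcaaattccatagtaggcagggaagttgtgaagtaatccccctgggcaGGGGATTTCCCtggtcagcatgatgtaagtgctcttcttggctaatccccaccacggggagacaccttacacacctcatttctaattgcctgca
Rnd3 site, chr2:51312108-51312307: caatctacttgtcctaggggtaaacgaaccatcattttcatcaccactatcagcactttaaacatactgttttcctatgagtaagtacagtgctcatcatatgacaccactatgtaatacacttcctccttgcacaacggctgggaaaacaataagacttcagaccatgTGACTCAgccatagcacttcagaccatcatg

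In these windows the Per1 site held 1 CRE core, and its midpoint lay 104 bp upstream of a start site of Per1, a core clock repressor and a classic cAMP-responsive gene, and its score was 43. The Adtrp site, in intergenic sequence 77771 bp downstream of the nearest start site and 53584 bp from any other CRTC2 midpoint, scored 21. The Ltbp1 site carried 2 AP1 matches beside a CRE core and matches to the broad NF-κB motif and the glucocorticoid response element. It lay 118440 bp upstream of the gene for a latent TGFβ-binding protein and scored 46. The Ptprj site, in an intron of a receptor tyrosine phosphatase gene, held an AP1 match beside the composite and scored 32. Within the Tnfsf15 intron, 2 overlapping NF-κB matches stood in a single run of 11 bases and the CRTC2 score was 75. The Rnd3 site, with an AP1 match and 163096 bp upstream of its nearest gene, scored 10, the lowest score in the list.

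The score that HOMER gives a peak is the number of tags in it counted at most once per position. Among the combined-only sites it ran from 10 to 130 with a median of 12, against a median of 19 for the other peaks of the list, and 1753 sites (31.4%) stood at the lowest score of 10. Normalized tag counts, scaled to 10000000 tags a library, had a median of 8.49 and a maximum of 121, and the median fold over input was 8.83. The share of the list that was combined-only was 82.1% at a score of 10, 65.3% at 11 to 12, 37.6% at 13 to 17, 12.7% at 18 and over and 4.58% at 30 and over. Many sites therefore sat next to the calling threshold, since 31.4% scored 10 and a further 30.7% scored 11 or 12.

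**Figure D1:**
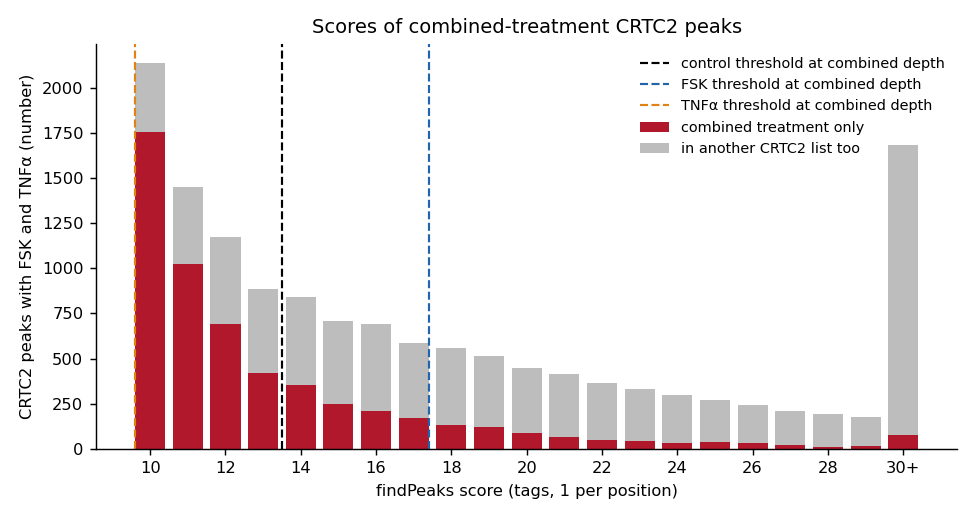
Number of combined-treatment CRTC2 peaks at each findPeaks score, split into sites called in no other CRTC2 list (red) and in another list too (grey), with peaks of score 30 or more pooled in the last bar. Dashed lines mark the score thresholds of the other 3 lists scaled to the depth of the combined library: 9.61 for TNFα, 13.5 for control and 17.4 for FSK; most red area lies left of the FSK line.

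Sequencing depth and score threshold differed between the lists. The combined CRTC2 library held 31807394 tags, the FSK library 16438040, the control library 18885214 and the TNFα library 26472345. At the depth of the combined library the FSK threshold of 9 corresponds to a score of 17.4, which 723 combined-only sites (12.9%) reached, and the control threshold to 13.5, which 1703 (30.5%) reached. The TNFα threshold corresponds to 9.61, below the lowest combined score of 10, so all 5588 reached it by construction. Read as total tags, where duplicates at a position count, 98.6% reached the lowest tag number listed with FSK and 99.7% that listed in control. Those numbers belong to the weakest listed peaks, at 4.87 and 4.24 normalized tags, and were not the calling limit. By score, then, 723 sites were above the scaled FSK threshold, and the TNFα and total-tag comparisons could hardly separate the sites. When each CRTC2 list was cut to its 5188 best-scored peaks, 1303 peaks of the combined list overlapped none of the others, a set that also takes in peaks outside the 5588, since the other lists were shortened too. Tags at these places in the other CRTC2 libraries were not analysed here, so a missing call is not a measured absence of CRTC2. The combined and FSK lists were called against input from FSK-treated cells, and the control and TNFα lists against input from untreated cells.

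Peaks listed under a single treatment were common in every CRTC2 list, at 2627 of 5188 in control (50.6%), 3663 of 11749 with FSK (31.2%) and 11360 of 19527 with TNFα (58.2%). Their median scores were 8, 10 and 9, equal to or 1 above the lowest score of each list. The combined-only share of 39.4% lay within the range of these 3 lists. The remaining peaks of the combined list were 2358 also listed with FSK but not TNFα, 2127 also listed with TNFα but not FSK, 4006 listed with both and 92 listed otherwise only in control. The first 3 of these classes, whether or not also listed in control, are called FSK-shared, TNFα-shared and shared with both.

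Distance to other CRTC2 peaks separated kinds of combined-only sites. Another CRTC2 midpoint lay within 500 bp of 1000 sites (17.9%), between 500 bp and 5 kb from 1406 (25.2%) and beyond 5 kb from 3182 (56.9%). Sites named below at Dgat1, Ccl7, Csf1, Gbp5, Gprc5b, Nr1d1, Crtc3, Cebpd, Sik1, Irs1 and St3gal1 were among those with another midpoint within 500 bp. The nearest other midpoint came from the TNFα list for 3082 sites, from the FSK list for 1939 and from control for 567. At the edge of the rule, 82 sites lay under 10 bp from another CRTC2 peak without touching it, with a median score of 15, and 82 excluded peaks shared at most 10 bp, also with a median score of 15. Sites within 500 bp of another midpoint lay in promoters in 47.6% of cases (95% interval 44.5% to 50.7%), those at 500 bp to 5 kb in 13.3% and those beyond 5 kb in 5.41%. Over the same order, H3AcK27 from the combined treatment covered 90% (88% to 91.7%), 70.3% and 52.7%, and AP1 matches stood at 11.8% (9.95% to 13.9%), 18.9% and 22.8% (21.4% to 24.3%). Close sites were thus promoter-rich and AP1-poor, and distant sites the reverse. Their median scores were 14, 12 and 11 in that order, and C/EBP matches stood at 15.5%, 24.5% and 28.3%.

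By position, 835 combined-only sites (14.9%, 14% to 15.9%) overlapped a promoter, taken as 1000 bp upstream to 100 bp downstream of a protein-coding start site, against 44.6% of the whole combined list. Introns held 2230 (39.9%), intergenic sequence 2302 (41.2%) and exons 221 (3.95%). The promoter share was 22.1% for peaks shared with FSK, 72.8% for those shared with TNFα and 84% for those shared with both. Of the 835 promoter sites, 476 (57%) had another CRTC2 midpoint within 500 bp. The median distance to a start site was 16400 bp, and the median GC content of the 200 bp windows was 46.5%, against 49.5%, 64% and 64.5% in those 3 shared classes.

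H3AcK27 regions covered 65.5% of the combined-only sites in control (64.3% to 66.8%), 61.1% with FSK, 67% with TNFα and 63.8% after the combined treatment (62.5% to 65.1%). Over the whole combined list the shares were 84.1%, 80.8%, 84.9% and 82.6%. The treatments therefore differed by a few percentage points, and the lowest share came from the FSK library, which had 9832884 tags against 25729060 to 27966129 in the other H3AcK27 libraries. Coverage in all 4 treatments was found at 3044 sites (54.5%), in none at 1499 (26.8%), and only with the combined treatment at 90 (1.61%). Most acetylated sites were already acetylated in untreated cells. By CRTC2 score class, coverage after the combined treatment was 41.7% (39.4% to 44%) at a score of 10, 61.1% at 11 to 12, 81% at 13 to 17 and 90.7% (88.4% to 92.6%) at 18 and over. Peaks shared with FSK but not TNFα had 73.4% (64.4% to 80.8%) at a score of 10 and 94.1% (92.7% to 95.2%) in the top class. The gap to the FSK-shared peaks was thus widest among the weakest sites. Of the promoter sites 94% were covered, and of those outside promoters 58.5% (57.1% to 59.9%), against 87.8% of FSK-shared peaks outside promoters.

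**Figure D2:**
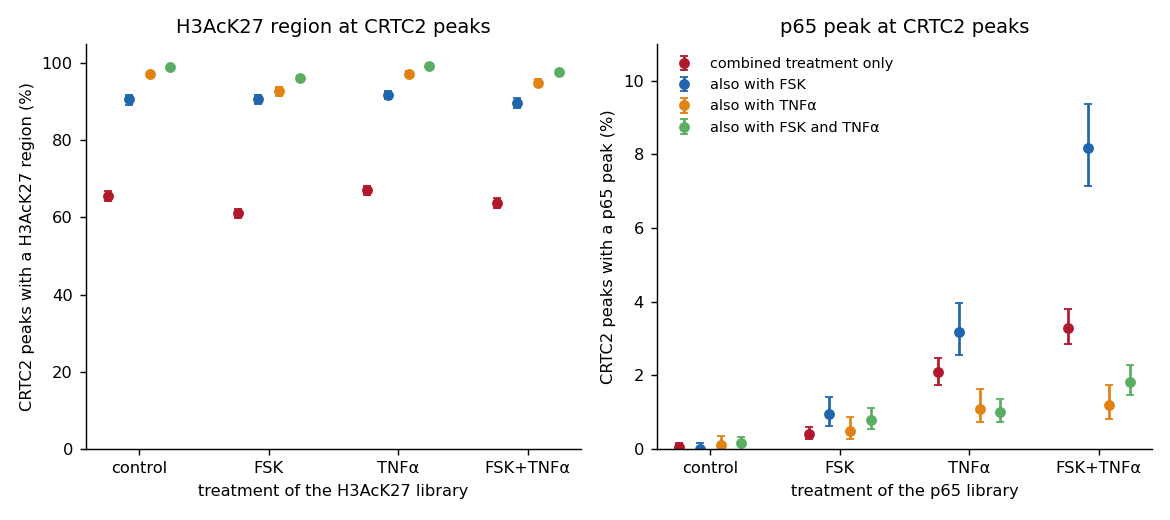
Share of combined-treatment CRTC2 peaks with an H3AcK27 region (left) or a p65 peak (right) in each treatment, in percent, for sites of the combined treatment only (red) and for peaks also listed with FSK, with TNFα or with both; points are shares and bars 95% Wilson intervals over peaks. H3AcK27 covered 61.1% to 67% of the combined-only sites in each treatment, and p65 overlap reached 3.29% with the combined treatment.

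Acetylation density differed little between treatments at the combined-only sites. At the 3044 sites with a region in every treatment, the median density was 63.1 normalized tags per kb in control, 65.5 with FSK, 67.8 with TNFα and 63.7 after both. The median log2 ratio to control was 0.09 with FSK (quartiles -0.18 to 0.36), 0.10 with TNFα (-0.08 to 0.30) and 0.06 with both (-0.21 to 0.32). Over 25396 acetylated regions of control cells the same medians were 0.05, 0.04 and -0.06, and at 1947 CRTC2 peaks shared with FSK they were 0.28, 0.08 and 0.19. At 141 combined-only sites with a p65 peak from the combined treatment the median log2 ratio was 0.14 with FSK, 0.27 with TNFα (0.07 to 0.51) and 0.26 with both (0.02 to 0.48), and density was above control at 116 and 112 of these sites in the last 2 treatments. The p65-bearing sites thus had the larger TNFα ratios. At 600 sites with a score of 18 and over the medians were 0.17, 0.16 and 0.18, and at 575 sites with a score of 10 they were 0.05, 0.06 and -0.04. Sites outside promoters with a CRE core and no AP1 match had medians of 0.19, 0.10 and 0.10, and those with AP1 and no CRE core 0.09, 0.10 and 0.02. The regions compared were called separately in each library, so their boundaries moved with the calls.

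p65 peaks from the control, FSK, TNFα and combined libraries overlapped 3, 22, 116 and 184 combined-only sites, or 0.0537%, 0.394%, 2.08% and 3.29% (2.86% to 3.79%). In the whole combined list these shares were 0.0776%, 0.6%, 1.81% and 3.36%, but the list holds many promoters, where p65 was rare (0.885%). Outside promoters the combined treatment gave p65 at 3.72% (3.22% to 4.3%) of the combined-only sites, 5.35% of the list and 7.86% (6.96% to 8.86%) of the other peaks, so the combined-only sites were below the rest. Peaks shared with FSK carried p65 from the combined treatment in 8.18% (7.15% to 9.36%), and those shared with TNFα in 1.18%. Outside promoters these shares were 9.79% (8.52% to 11.2%) and 3.28% (2.11% to 5.07%), the second overlapping the interval of the combined-only sites. By CRTC2 score class the share of combined-only sites with p65 was 1.2% at 10, 1.93% at 11 to 12, 4.29% at 13 to 17 and 9.68% (7.73% to 12.1%) at 18 and over. In the top class the peaks shared with FSK had 11.8% (10.2% to 13.7%), so within score classes the intervals of both kinds overlapped. Peaks called only in control, only with FSK or only with TNFα overlapped a p65 peak of the combined treatment in 0.457%, 1.2% and 0.695%. Of the 4221 p65 peaks of the combined treatment, 4.36% lay over a combined-only site.

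The 184 sites with p65 differed from the 5404 without it in sequence and position. Their median CRTC2 score was 15.5 against 11. The broad NF-κB motif was matched at 34.8% (28.3% to 41.9%) against 4.31%, AP1 at 32.6% (26.3% to 39.7%) against 19.4%, and C/EBP at 34.2% against 24.7%. The CRE core was found at 12% (8.03% to 17.4%) and 16.5%. Only 7 (3.8%) lay in promoters, whereas 100 were intergenic and 75 intronic, and 90.8% were covered by H3AcK27 with the combined treatment. A p65 peak with TNFα alone was also present at 52 (28.3%), and 131 (71.2%) had no p65 peak in another treatment. In the whole p65 list of the combined treatment, 272 of 4221 peaks (6.44%) overlapped a p65 peak of TNFα alone. Those over combined-only sites did so in 31%, those over other combined CRTC2 peaks in 23.3% and the rest in 3.93%. A p65 peak missing from the TNFα list was therefore less common at these sites than in the p65 list. Of the 292 other CRTC2 peaks with p65, 19.9% (15.7% to 24.8%) held the broad NF-κB motif, 27.7% (22.9% to 33.1%) a CRE core and 25.3% AP1, and 16.8% lay in promoters. Among p65-bearing peaks, the combined-only ones thus had more NF-κB letters and fewer CRE cores. The p65 list was itself near its threshold, with a median score of 9 for the 184 p65 peaks over combined-only sites and 7, the lowest value, for the 3745 peaks away from CRTC2.

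Motifs were searched as exact matches on both strands of the 200 bp windows: the CRE core TGACG, the full CRE TGACGTCA, AP1 as TGACTCA, C/EBP as TTGCNNAA or TTACNNAA, the C/EBP-ATF composite TGATGCAA, the glucocorticoid response element (GRE) by name, SP1 as GGGCGG, ETS as CCGGAAG, and a strict and a broad NF-κB motif by name. Every full CRE holds a CRE core and every strict NF-κB match is also a broad one. Combined-only sites held AP1 at 1110 (19.9%, 18.8% to 20.9%), against 14.5% of the whole list and 3.55% of equal windows 2 kb away. The comparison with the list turned outside promoters, as given below. A CRE core stood at 912 (16.3%, 15.4% to 17.3%), against 25.2% of the list and 6.1% of the flanking windows. C/EBP was found at 1399 (25%, 23.9% to 26.2%), against 17.8% and 17.1%, and the C/EBP-ATF composite at 105 (1.88%), against 1.59% and 0.394%. Both AP1 and the CRE core were thus several times more frequent at the sites than beside them.

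The remaining motifs were less frequent. GRE was matched at 295 sites (5.28%), against 4.19% of the list and 2.61% of flanking windows. The strict NF-κB motif was matched at 35 (0.626%), against 0.409% and 0.0805%, and the broad one at 297 (5.31%, 4.76% to 5.93%), against 4.47% and 2.18%. SP1 was found at 575 (10.3%), against 28.6% and 3.11%, and ETS at 143 (2.56%), against 8.39% and 0.626%, both of them motifs of GC-rich promoters. The NF1, DR1 and NRF1 motifs, searched by name, stood at 5, 19 and 41 sites. Within the windows, 59.2% of CRE core matches and 57.1% of AP1 matches lay within 50 bp of the midpoint. Any of CRE core, AP1 or C/EBP was present at 2793 sites (50%), and CRE core and AP1 stood together at 195 (3.49%). In 300 bp windows, which match RefSeq promoters of GRCm38 in length, the combined-only sites held AP1 at 24.2% and a CRE core at 20.8%, and all 32851 promoters at 5.2% and 20.8%.

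Outside promoters several directions turned. AP1 stood at 22.4% of the combined-only sites, 24% of the list and 26.4% (24.9% to 28%) of the other peaks, GRE at 5.89% (5.26% to 6.6%), 6.61% and 7.73% (6.84% to 8.72%), and the C/EBP-ATF composite at 2.12% (1.75% to 2.58%), 2.61% and 3.36% (2.78% to 4.06%). All 3 were thus less frequent at the combined-only sites than at the other peaks there, whereas C/EBP, at 27.2% (26% to 28.5%), 26% and 24.2% (22.7% to 25.7%), was more frequent, and the broad NF-κB motif, at 5.53% (4.92% to 6.22%), 5.16% and 4.59% (3.91% to 5.39%), had overlapping intervals. By class, AP1 stood at 22.4% (21.2% to 23.6%) of the combined-only sites and at 33.9% (31.8% to 36.1%) of the peaks shared with FSK, 14.9% of those shared with TNFα and 15.6% of those shared with both. The CRE core stood at 14.9% (13.9% to 15.9%), 39.9% (37.7% to 42.2%), 14.3% and 25.5% in the same classes. C/EBP stood at 27.2%, 31.6% (29.5% to 33.7%), 12.3% and 14.4% in these classes, so the FSK-shared peaks held it more often than the combined-only sites. The combined-only sites were therefore intermediate for AP1 and C/EBP and near the TNFα-shared peaks for the CRE core. Beyond the combined list, AP1 stood at 4.11% of peaks called only in control, 14.3% of those called only with FSK and 6.18% of those called only with TNFα, and the CRE core at 5.75%, 16% and 9.52%. Among peaks at the lowest score of each list, AP1 stood at 13.2% (11.7% to 14.9%) of the combined-only sites and at 11.1% (9.58% to 12.8%), 5.96% and 3.87% of those called only with FSK, only with TNFα and only in control.

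Some of these differences were smaller within score classes and others were not. Outside promoters at a score of 18 and over, 521 combined-only sites and 1038 peaks shared with FSK held AP1 at 32.6% (28.7% to 36.8%) and 37.1% (34.2% to 40.1%), intervals that overlap, and the CRE core at 24.8% (21.2% to 28.6%) and 46.8% (43.8% to 49.9%). The broad NF-κB motif stood at 10.7% (8.37% to 13.7%) of the combined-only sites and at 4.34% (3.26% to 5.75%) of the FSK-shared peaks in that class. p65 peaks overlapped 12.7% (10.1% to 15.8%) and 14.1% (12.1% to 16.3%). At a score of 10 the broad NF-κB motif was at 3.26% and 3.41%, and AP1 at 14% and 26.1%. The best-scored combined-only sites were thus richer in NF-κB letters and poorer in CRE cores than FSK-shared peaks of the same score class, without a replicate to test it. TNFα-shared peaks were not split by score, so whether this was particular to the combined-only sites was not measured in that class. Outside promoters and over all scores, TNFα-shared peaks held the broad motif at 6.22% (4.52% to 8.49%) and the CRE core at 14.3%. The combined-only sites stood at 5.53% and 14.9% there.

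**Figure D3:**
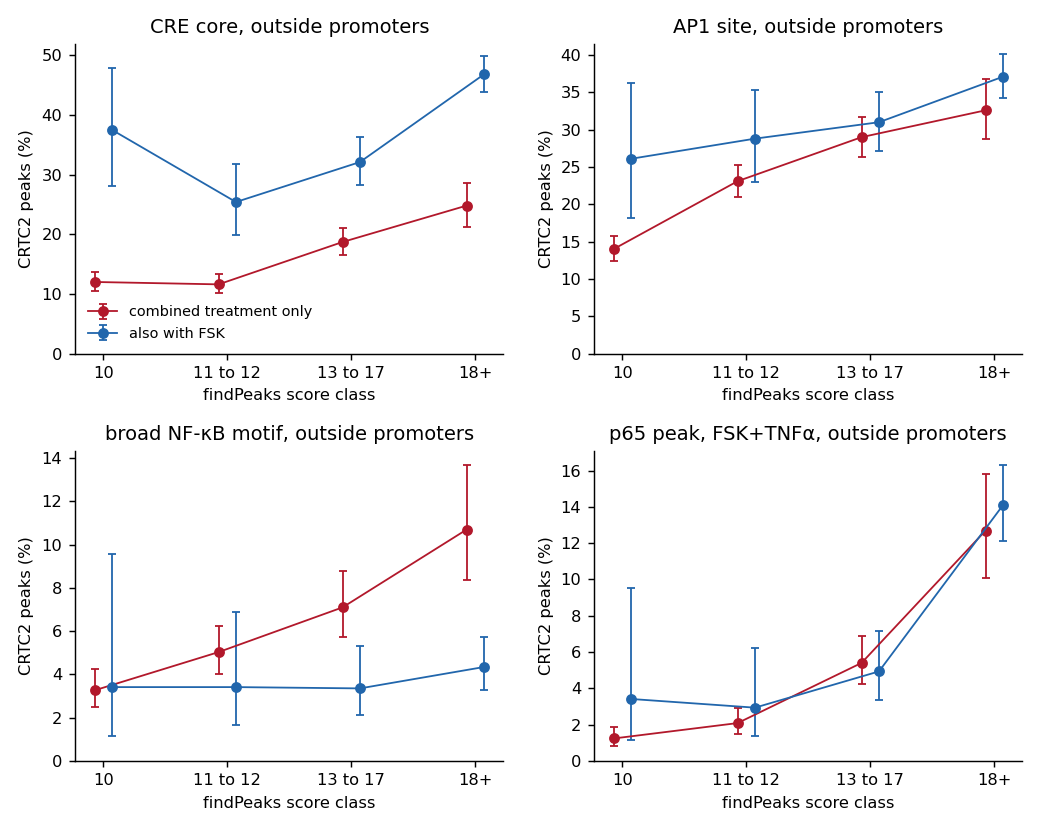
Share of CRTC2 peaks outside promoters with a CRE core, an AP1 site, the broad NF-κB motif or a p65 peak of the combined treatment, in percent, by findPeaks score class, for combined-only sites (red) and peaks also listed with FSK but not TNFα (blue); points are shares and bars 95% Wilson intervals over peaks. The broad NF-κB motif stands at 3.26% in the lowest and 10.7% in the highest class in red and ends at 4.34% in blue, while the CRE core ends at 24.8% in red and 46.8% in blue.

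The best-scored combined-only site of all, with a score of 130 and 121.4 normalized tags, lay in an intron of Frs2, the adaptor of FGF receptors, at chr10:117111603-117111765. Its fold over input was 4.2, and input in the acetylated regions of the same 2 Mb stretch was 32.2 times the genome median. It lay in an H3AcK27 region with FSK only, at 675 normalized tags per kb. The site upstream of the carbohydrate kinase gene Fggy, with a score of 62 and a fold of 4.08, also lay in a 2 Mb stretch of raised input, at 13 times the median. A p65 peak of 70.2 normalized tags was listed there with TNFα, and no H3AcK27 region in any treatment. The part of raised input in both calls was not tested.

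Tnfsf15, which codes for a cytokine of the TNF superfamily, had 2 of the best-scored sites. The intronic one at chr4:63740821-63740983, whose sequence is shown above, scored 75 with 58.5 normalized tags and a fold of 6.46, and carried p65 peaks of 47.9 normalized tags with TNFα and 94.2 with both. No p65 peak was listed there in control or with FSK. The second, 18935 bp from the start site at chr4:63726097-63726259, scored 82 and had no p65 peak. Neither lay in an H3AcK27 region in any treatment, and for both the nearest other CRTC2 midpoint, 12264 bp from the intronic site and 26988 bp from the second, came from the FSK list. Ptx3, which codes for the long pentraxin of the innate response, had an intronic site of score 38 that was also outside H3AcK27.

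Sod2, the mitochondrial superoxide dismutase and a known NF-κB target, had p65 and acetylation at the same site. At chr17:13010093-13010255, in its intron and 2357 bp from the start site, the CRTC2 score was 56 with 39 normalized tags and a fold of 10.6. The p65 peak there held 15.2 normalized tags with FSK, 64.7 with TNFα and 75.6 after both, and none was listed in control. H3AcK27 density was 65.5 normalized tags per kb in control, 76.5 with FSK, 135 with TNFα and 144 with both. Values with TNFα, alone or combined, were thus the high ones for both marks. Sod2 had 4 combined-only sites in all.

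Further p65-bearing sites among the best ranked lay at Gprc5b, Gm17555, Slfn2, Gbp5, Fndc3b and Nectin1. The Gprc5b site, in an intron of this orphan receptor gene, scored 49, held AP1 and strict NF-κB matches, and had a p65 peak of 15.1 normalized tags only with the combined treatment. The Gbp5 promoter site, 223 bp upstream of this interferon-inducible GTPase gene, scored 34 and had p65 only with the combined treatment, at 19 normalized tags. The Fndc3b site scored 32, and its p65 peak held 8.18 normalized tags with TNFα and 45.9 with both. The Gm17555 site at chr2:126310053-126310215 scored 41 and carried p65 with FSK, at 13.6, and with both, at 30.3. The Slfn2 promoter site, at a Schlafen family gene, scored 35 with AP1 and C/EBP-ATF matches and p65 at 16.1 with both, and the Nectin1 site, far upstream of this adhesion molecule gene, scored 31 with p65 at 20 with both. Most of these p65 peaks were thus listed with the combined treatment but not with TNFα alone. The sites were picked by p65 with the combined treatment, and 6.44% of that whole p65 list overlapped a p65 peak of TNFα alone. At the Ccl2 site, 18994 bp upstream of this monocyte chemokine gene, p65 held 35.3 normalized tags with TNFα and 24.9 with both, and the CRTC2 score was 28.

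Of the CREB/CRTC target genes, 18 of 27 (66.7%) were nearest to at least 1 combined-only site within 50 kb, the highest share of the lists at that distance. Of all 21842 protein-coding genes, 3166 were (14.5%), and 36.3% were nearest to at least 1 peak of the combined list. Within 10 kb the order was another, with 9 of 27 target genes, 12 of 25 NF-κB genes and 8 of 19 clock genes. The share of all protein-coding genes within 10 kb was not computed, so the counts at that distance have no background. Those 3166 genes took up 4069 of the 5588 sites, and 1519 sites lay farther than 50 kb from any start site. For the target genes, 25 of 27 (92.6%) were nearest to at least 1 peak of the combined list, of whatever class. The lists were drawn up with earlier results of these data known.

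Per1 had the best promoter-proximal site of the target list, at chr11:69099967-69100129, with 32.1 normalized tags and a fold of 4.59. H3AcK27 density at it was 115 normalized tags per kb in control, 237 with FSK, 116 with TNFα and 142 with both, highest with FSK alone. Dusp1, the MAP kinase phosphatase, was nearest to an intronic site of another gene 25516 bp upstream of it, with a score of 39 and a fold of 4.09. Sik1, the salt-inducible kinase that cAMP induces and that restrains CRTCs in turn, was nearest to 4 sites, the best of them 11680 bp from its start site with a score of 23 and a broad NF-κB match. Crem, which codes for the CREB-related repressor ICER, had a promoter site of score 22, and Nr4a1, Pde4b and Pde4d had sites of 17, 20 and 18.

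Among the regulators of CREB, CRTCs and SIKs, 9 of 21 genes (42.9%) had a combined-only site, against 14.5% of all protein-coding genes. Any peak of the combined list stood nearest to 66.7% of these regulators, against 36.3% of all genes. Gnas, the stimulatory G protein subunit, had a promoter site of score 26 and fold 46.17, Crtc3 a promoter site of score 18, and Sik3 4 sites of scores 10 to 16. Prkaca, the catalytic subunit of protein kinase A, and Stk11, the kinase LKB1 that activates SIKs, had promoter sites of 14 and 13. The site scores in this list had a median of 13.

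NF-κB subunits, inhibitors and targets had 13 of 25 genes (52%) with a combined-only site, against 14.5% of all genes, and the median score was 14. Any peak of the combined list stood nearest to 80% of this list, against 36.3% of all genes. Several genes of the IκB family, and Tnfaip3, were among the 13. Nfkbia (IκBα) had a site of score 26 with an AP1 match and Nfkbie one of 23. Tnfaip3 (the deubiquitinase A20) had one of 21 with a fold of 97.46. Bcl3 had a promoter site of 16, Nfkbiz a site of 15 and Nfkbib a promoter site of 13. Tnip1, whose product binds A20, had an intronic site of score 25 with a broad NF-κB match and a p65 peak of 14.5 normalized tags with TNFα only. Nfkb1, coding for p105 and p50, was nearest to 4 sites, the best of score 20.

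Chemokines and cytokines had 12 of 25 genes (48%) with a site, against 14.5% of all genes, and the highest median score of the lists, 19. Any peak of the combined list stood nearest to 68% of them, against 36.3% of all genes. Ccl7, a monocyte chemokine, had a site of score 37 at chr11:82047898-82048060, with H3AcK27 density of 103 normalized tags per kb in control, 97.9 with FSK, 118 with TNFα and 112 after both. A CRTC2 midpoint of the TNFα list lay 208 bp from this site. The macrophage growth factor gene Csf1 had 4 sites, the best of score 27 with p65 at 16.4 normalized tags with TNFα only. Lif had a site of score 26 in an exon. Cxcl1, the neutrophil chemokine, was looked up after its values were seen, and had 2 combined-only sites, the better one 10579 bp upstream with a score of 25.

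**Figure D4:**
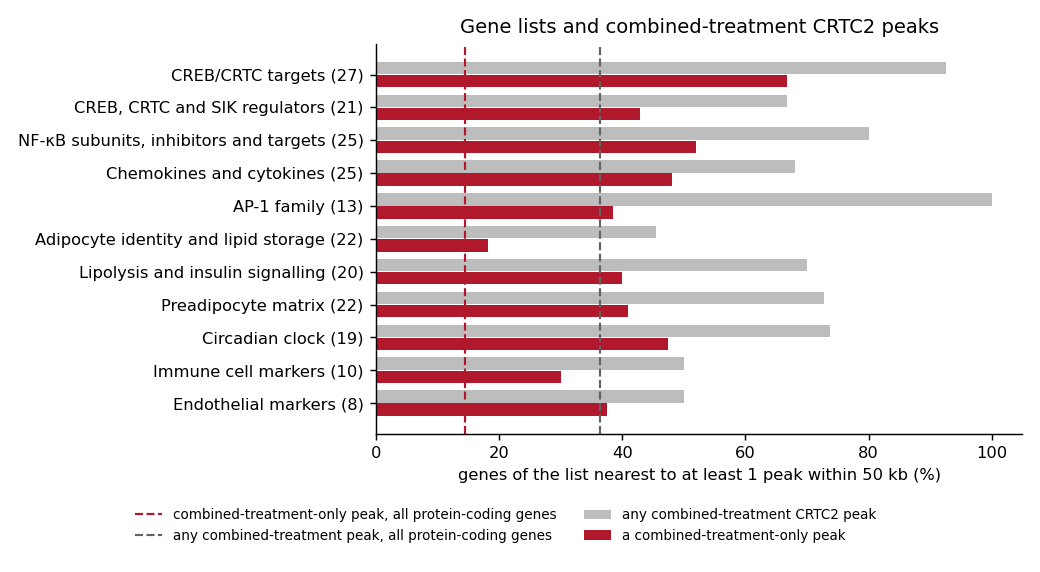
Percent of the genes in each list (number of genes in brackets) that are nearest to at least 1 combined-only CRTC2 site (red) or to any CRTC2 peak of the combined treatment (grey) within 50 kb of a start site. Dashed lines mark the same shares over all 21842 protein-coding genes, 14.5% and 36.3%; the lists were chosen with earlier results known, and CREB/CRTC targets reach 66.7% in red.

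AP-1 family genes had sites at 5 of 13, with combined-list peaks at all 13, and Fosl2, which codes for the AP-1 subunit Fra-2, had the best of them at a score of 41, 2693 bp upstream. Circadian clock genes had sites at 9 of 19, among them Nfil3 with a score of 32, Nr1d1 with a promoter site of 17, and Per2 and Dbp. Combined-list peaks of any class stood nearest to 73.7% of the clock genes and 72.7% of the preadipocyte matrix genes, against 36.3% of all genes. Preadipocyte matrix genes had sites at 9 of 22, led by Timp1, the metalloproteinase inhibitor, whose site of score 39 had the highest fold over input of all combined-only sites, 138.5, and lay in an H3AcK27 region only with the combined treatment, at 13.3 normalized tags per kb. With 25.5 normalized tags at the site, that fold rested on a very low input count. The folds of 97.46 at Tnfaip3 and 46.17 at Gnas, with 17.9 and 17 normalized tags, did so too.

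Adipocyte identity and lipid storage genes had sites at 4 of 22 (18.2%), near the 14.5% of all genes and the lowest share of the lists within 50 kb, and these were Dgat1, Cebpd, Lpin1 and Pparg. Within 10 kb they had 3 of 22, while AP-1 family genes had 1 of 13 and immune markers 0 of 10, again without a share over all genes. The promoter site of Dgat1, the last enzyme of triglyceride synthesis, scored 48 with a fold of 26.29, and H3AcK27 there was 67.3 normalized tags per kb in control, 92.1 with FSK, 61.6 with TNFα and 97.7 with both, higher in both FSK conditions. Other CRTC2 midpoints lay 387 bp from it in control, 428 bp with FSK and 443 bp with TNFα. Lipolysis and insulin signalling genes had sites at 8 of 20, none above a score of 14, with Irs1 and Irs2 at that value and Pnpla2, the triglyceride lipase ATGL, at 10. Immune cell markers had sites at 3 of 10, with best scores of 17 at Mrc1, 12 at Itgam and 10 at Csf1r, and endothelial markers at 3 of 8, with 17 at Cldn5, 15 at Emcn and 10 at Pecam1. Combined-list peaks of any class were nearest to 45.5% of the adipocyte list and 70% of the lipolysis list. For the immune and endothelial lists that share was 50% each, against 36.3% of all genes.

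Promoter sites of high score outside these lists were found at Dph5, Golph3, Ptp4a1 and Nrbp1, with scores of 60, 40, 40 and 38, and each lay 180 to 313 bp from another CRTC2 midpoint. The Golph3 promoter site held a full CRE. A site 7275 bp upstream of Sirt4, a mitochondrial sirtuin gene, scored 58 and had H3AcK27 density of 92 normalized tags per kb in control, 128 with FSK, 116 with TNFα and 151 after both, lowest in control. At the sites of highest fold after Timp1, near Mrpl33, Ggnbp2, Mxi1, Arntl and Gna14, folds ran from 111.1 to 119.7 with scores of 23 to 33, and all 5 held a CRE core. The Timp1 site held none, and a CRE core stood at 16.3% of all combined-only sites. Normalized tags at the 5 ran from 20.4 to 22, so these folds also rested on very low input counts. Other CRTC2 midpoints lay 193 bp from the Mrpl33 site and 416 bp from the Mxi1 site with FSK. With TNFα, 1 lay 221 bp from the Ggnbp2 site. The Mrpl33 site was acetylated at 18.2 normalized tags per kb in control, 48.7 with FSK and 124 with both, and no region was listed there with TNFα. The Arntl site, far upstream of the clock gene for BMAL1, had regions only in the FSK conditions, at 24.4 and 16.3.

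Several genes gathered more than 1 combined-only site. Of the 3166 genes, 2493 had 1, 509 had 2, 112 had 3, 41 had 4, 10 had 5 and 1 had 8. The gene with 8 was Camk2d, a calcium/calmodulin-dependent kinase, and its sites scored from 10 to 17. The genes with 5 were Apbb2, Fam129b, Lpp, Nek6, Ppp4r2, Rab4a, Rpl30, Sept9, St3gal1 and Tead1. Their best scores ran from 12 at Rpl30 and Tead1 to 49 at St3gal1, a sialyltransferase gene. A gene is named here by its nearest start site, which does not show that the site acts on it.

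Combined-only sites were unevenly spread over chromosomes. Chromosomes 1 to 19 and X held 2.12 per Mb, with 3.73 on chromosome 11, 3.48 on 15 and 3.33 on 3, and 0.637 on X. The other peaks of the combined list were uneven too, at 3.26 per Mb in all and 6.52, 4.07, 3.31 and 1.16 on these chromosomes. Combined-only sites made up 36.4%, 46.1%, 50.2% and 35.4% of the combined peaks there, against 39.4% of the list. Chromosomes 11 and X thus lay below the list share, and 15 and 3 above it. The density of input tags in H3AcK27 regions, relative to the genome median, was 1.28, 1.27, 1.39 and 0.771 on the same chromosomes. The densities of peaks called only with TNFα were also highest on chromosomes 11, 3 and 15, at 8.96, 7.85 and 7.84 per Mb. Site density and input density were thus high on the same chromosomes, and the part of input in the number of sites was not tested. Leaving out chromosomes 3, 5, 11, 15 and 17 gave 3618 sites.

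**Figure D5:**
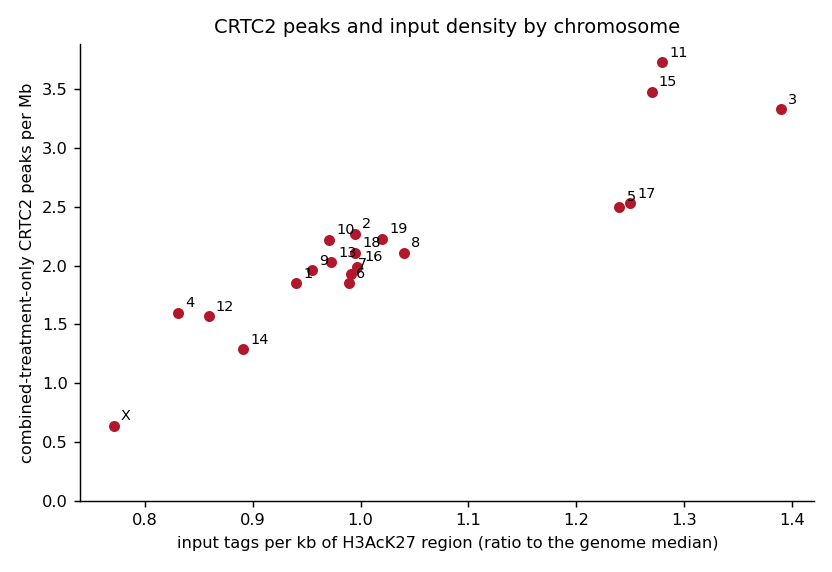
Combined-only CRTC2 sites per Mb against input tags per kb of H3AcK27 region, as a ratio to the genome median, for chromosomes 1 to 19 and X; each point is 1 chromosome with its name. Chromosomes 11, 15 and 3 lie at the upper right with 3.33 to 3.73 sites per Mb, and X at the lower left with 0.637.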

How the data were processed

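ChIP-seq for CRTC2, p65 and H3AcK27 was performed by the authors in 4-day differentiated 3T3-L1 adipocytes, with 1 library for each of 4 treatments. The submitters' processing notes name STAR, HOMER and build mm10, without versions. Per the file headers, the authors called factor peaks and histone regions with findPeaks against input, at 4-fold over input (Poisson p 0.0001) and, for factors, an FDR of 0.001 and 4-fold over the local 10 kb. The deposited normalized tag counts are a signal scaled to 10000000 tags a library, the deposited score is a tag number with at most 1 tag per position, and the deposited fold over input is a ratio. Region sizes in bp, another deposited value, gave densities per kb. The deposited clonal and local folds were not used.

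Combined-treatment CRTC2 peaks sharing 0 bases with the other CRTC2 lists were kept. Overlap with p65 and H3AcK27 meant 1 bp or more. Input density came from the input tags that the authors list for the combined H3AcK27 regions. Protein-coding start sites came from GENCODE release 21 and sequence from GRCm38. Sites were named by the nearest start site at any distance, and counts of genes and lists used those within 50 kb. No test was run, because each group held 1 library. Steps used python 3.11.15, numpy 2.4.6, pandas 2.3.3, pysam 0.24.0 and matplotlib 3.10.9, and the overlap, motif and interval code was tested on simulated data. The sites and gene lists were chosen with earlier results of these data known. Genes were named by rule: nearest genes of the 12 best-scored sites, the 6 of highest fold, the 6 best promoter sites, the 8 best-ranked with p65, the 4 best outside H3AcK27, the 4 genes with most sites (11 with ties), and up to 3 per list. Genes listed beyond the top 3 of a list, and Adtrp, Ptprj and Rnd3, were chosen after their values were seen. Alternatives covered depth, score, fold, distance, motif, promoter and gene windows.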

Additional observations from a re-analysis of the deposited data

Results flagged for a closer look

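The density of input tags listed in H3AcK27 regions, a measure outside the CRTC2, p65 and H3AcK27 signals, was above 5 times the genome median in 4 stretches of 2 Mb. These held 8 combined-only sites, with 3, 2 and 2 on chromosome 10 and 1 on chromosome 4, and input there was 6 to 32.2 times the median. The best-scored site, at Frs2, and the Fggy site were among the 8. Their fold over input was 4.2 and 4.08, just above the 4-fold limit of the lists. The part of raised input in these calls was not tested.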

How the results depend on the processing

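Of 95 recomputed values, 37 stayed within the 95% interval of the reported share, or within 1.5 times the reported count, and 58 moved. In the order number of sites, p65, H3AcK27, CRE core, AP1, strict NF-κB and promoter shares, and genes of the lists, the reported values were 5588, 3.29%, 63.8%, 16.3%, 19.9%, 0.626%, 14.9% and 87. With lists of equal size, which also bring in peaks outside the 5588, they were 1303 sites, p65 9.36%, H3AcK27 93.6%, CRE core 31.2%, AP1 22.4%, promoters 37.3% and 34 genes. Scores at or above the list median gave 1347 sites, 7.65%, 88.1%, 23.8%, 24.4%, strict NF-κB 0.891%, promoters 23.7% and 41 genes. Scores that reach every other threshold at equal depth, an alternative added after seeing the data, gave 723 sites, 9.68%, 90.7%, 27.4%, 24.3%, 0.968%, 27.9% and 26 genes. Sites of 8-fold over input numbered 3101, with H3AcK27 at 61.9%, AP1 at 18.3% and 56 genes. Leaving out chromosomes 3, 5, 11, 15 and 17, also added later, gave 3618 sites, H3AcK27 69.4%, CRE core 17.9%, AP1 21%, promoters 16.8% and 54 genes.

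Peaks widened to 500 bp either side gave H3AcK27 55.4%, CRE core 15.1%, AP1 22.4% and promoters 5.7%. Sites over 500 bp from another midpoint, added later, gave 58.1%, 15.3%, 21.6% and 7.82%, and requiring only 100 bp between midpoints gave H3AcK27 67.1%, CRE core 17.8% and promoters 18.5%. Motif windows of 100 bp gave CRE core 9.65%, AP1 11.4% and strict NF-κB 0.215%, and windows of 400 bp gave CRE core 23.7% and AP1 27.1%. The full CRE stood at 1.4%, a looser AP1 motif at 49% and the broad NF-κB motif at 5.31%. Promoters of 2000 bp either side took in 22.5% and those of 250 bp up and 50 bp down 10.8%. p65 midpoints within 100 bp gave 2.59%, site midpoints inside H3AcK27 regions 62.3%, H3AcK27 regions of 8-fold over input 31.2%, and a gene distance of 10 kb 53 genes.

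Scaling tags to the shallowest library and keeping chromosomes 1 to 19 and X moved none of the 8 values. The scaling asked only for the lowest tag number listed with FSK, which nearly all sites reached. The cause of the moves was not tested beyond what each setting leaves out. The combined CRTC2 library was the deepest, and the part of depth in the calls was not settled by these settings. No paired analysis was possible because each group held 1 library, and for the same reason no replicate could be left out.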
